A study of Mus musculus with 4 samples.

Results

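The Schlafen genes are a mammalian family that lies largely in a single cluster on mouse chromosome 11. The members described here are Slfn1, Slfn2, Slfn3, Slfn4, Slfn5, Slfn8 and Slfn9, 7 of the 55573 Ensembl genes in the deposited tables, found by matching identifiers to symbols. All 7 were measured in 4 RNA sequencing libraries of B cells sorted from bone marrow of C57BL/6 mice aged 8 to 12 weeks. The gate was Fr.C+C′, a stage of developing B cells between the pro-B and the small pre-B cell. Of these libraries, 2 were from mice labelled wild type (WT 1, WT 2) and 2 from mice labelled ADAR1 KO (KO 1, KO 2). ADAR1, the product of Adar, edits adenosine to inosine in double-stranded RNA, and its loss in many tissues is known to set off interferon signalling. Which cells carried the deletion, how it was made and whether each library came from its own mouse are not stated in the labels, so the p-values below speak only of how these libraries vary, and that variation may be technical.

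Schlafen proteins share an amino-terminal domain that in several members cleaves transfer RNA, and the family was first described as a regulator of thymocyte growth. Many members are induced by type I interferon, and several are expressed in T cells, macrophages and granulocytes. By length the mouse proteins fall into a short group I (Slfn1, Slfn2), an intermediate group II (Slfn3, Slfn4) and a long group III with a helicase-like carboxy-terminal domain (Slfn5, Slfn8, Slfn9).

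The 7 genes span 264 kb of chromosome 11, from 82951349 to 83215154 (GRCm38, GENCODE M21), in the order Slfn5, Slfn9, Slfn8, Slfn2, Slfn1, Slfn4 and Slfn3. Slfn5 (ENSMUSG00000054404) runs from 82951349 to 82964840, Slfn9 (ENSMUSG00000069793) from 82978390 to 82991830 and Slfn8 (ENSMUSG00000035208) from 83002158 to 83020810. Slfn2 (ENSMUSG00000072620) runs from 83065112 to 83070678 and Slfn1 (ENSMUSG00000078763) from 83116849 to 83122670. Slfn9 and Slfn8 lie on the minus strand and the other members on the plus strand. Slfn4 (ENSMUSG00000000204, 83175186 to 83190216) ends 1113 bases before Slfn3 (ENSMUSG00000018986, 83191330 to 83215154) begins, the shortest gap between the members. The sequences just before the transcription starts are shown because the members differ in the letters that they share there. Whether these letters bear on the transcript levels was not tested. The sequences are from RefSeq (GRCm38.p6), in which all 7 members had an entry. They are written on the strand of the gene, and end at the last base before the start except for Slfn5. In the windows of Slfn1, Slfn2, Slfn3 and Slfn4 the capitals mark the longest run of letters that all 4 share, and in the others they mark a match to the interferon-stimulated response element, searched on both strands as a pair of GAAA half-sites with 2 bases of any kind between them.
Slfn1, chr11:83116720-83116819, plus strand: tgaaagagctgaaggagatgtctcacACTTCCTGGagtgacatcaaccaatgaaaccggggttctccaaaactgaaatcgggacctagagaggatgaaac
Slfn2, chr11:83065012-83065111, plus strand: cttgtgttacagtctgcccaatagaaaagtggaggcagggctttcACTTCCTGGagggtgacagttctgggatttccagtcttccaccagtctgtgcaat
Slfn4, chr11:83175086-83175185, plus strand: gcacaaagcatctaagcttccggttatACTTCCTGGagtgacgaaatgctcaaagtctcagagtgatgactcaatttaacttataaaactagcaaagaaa
Slfn3, chr11:83191230-83191329, plus strand: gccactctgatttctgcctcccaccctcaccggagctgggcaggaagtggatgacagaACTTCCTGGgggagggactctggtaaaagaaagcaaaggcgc
Slfn5, chr11:82951902-82951981, plus strand: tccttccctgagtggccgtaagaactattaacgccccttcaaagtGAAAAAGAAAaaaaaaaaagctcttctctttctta
Slfn8, chr11:83020811-83020910, minus strand: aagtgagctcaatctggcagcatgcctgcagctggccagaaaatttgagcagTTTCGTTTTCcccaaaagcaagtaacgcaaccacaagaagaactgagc
Slfn9, chr11:82991831-82991930, minus strand: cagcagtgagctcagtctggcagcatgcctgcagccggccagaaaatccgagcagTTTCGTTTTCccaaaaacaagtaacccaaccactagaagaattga

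Over the 250 bases before the start, the response element matched in 3 of the 7 members, the group III genes, and in 2.98% of 32851 RefSeq windows of the same length. Counted from the start, its last base was at -36 in Slfn9, -39 in Slfn8 and -146 in Slfn5, whose RefSeq start lies inside the longer GENCODE gene. Slfn8 has a second RefSeq start with the same match. The windows of Slfn8 and Slfn9 aligned over 245 bases with 204 identical (83.3%). The run ACTTCCTGG, which was picked after the sequences were seen, began at -74 in Slfn1, -55 in Slfn2, -73 in Slfn4 and -42 in Slfn3 and occurs on either strand in 0.7% of all windows. In Slfn1 and Slfn4 the shared run extends to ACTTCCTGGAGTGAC, which is present in 2 windows of the 32851. A STAT site (TTCNNNGAA, in 7.02% of windows) and a PU.1 site (GAGGAAGT, in 2.44%) matched exactly in 0 of the members. The shared run reads CCAGGAAGT on the other strand, and its CAGGAAGT differs from the PU.1 letters only in the first letter. The 250 bases of Slfn4 also hold TTTCACTTTT, upstream of the stretch printed. On the other strand it differs from the response element only in the first letter. Such near matches were not counted over the members or over all windows. These matches describe letters only.

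The libraries held between 15113112 and 16383381 fragments assigned to genes, as recovered from the steps of the FPKM values (fragment numbers scaled to exon length and library size). Of 13281 genes that averaged 1 FPKM or more in WT or in KO, 27 fell and 0 rose in the KO-labelled libraries at an adjusted p under 0.05 in limma, 0.203% in all. At an unadjusted p under 0.05, 856 genes were higher, and voom on estimated fragments gave 0 higher and 9 lower genes. Scaling the libraries to B-lineage markers gave 27 higher and 95 lower genes. Adar was at 15.04 and 14.62 FPKM in wild type and at 15.19 and 16.79 FPKM in the KO-labelled libraries (adjusted p = 0.721, limma), and a value over the whole gene does not check for loss of some exons. All 12 B-lineage markers were detected, with sums of 2663 and 2709 FPKM in wild type and 2177 and 1316 FPKM in KO 1 and KO 2. Neutrophil markers were also abundant in every library. A positive log2 change was found for 12 of 12, against 38.3% of all genes tested. Summed, the 12 markers reached 27447 and 25679 FPKM in wild type and 36045 and 73197 FPKM in KO 1 and KO 2. KO 2 therefore stood apart from the other libraries.

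Across the family, 6 of 7 genes had higher levels in each KO-labelled library than in either wild type library, against 19.7% of all genes tested. The exception was Slfn3. In the same 6 genes KO 2 was also above KO 1, an order that 14.8% of all genes had. No Schlafen gene passed the test over all genes (0 of 7 in limma and 0 of 7 with voom, where 0% of all genes rose in limma), and 3 of 7 had an unadjusted p under 0.05, against 6.45% of all genes that were higher at that level. The summed level of the 7 genes was 172 and 195 FPKM in wild type, 310 FPKM in KO 1 and 617 FPKM in KO 2. The median log2 change over the 7 genes was 0.79 on the log2(FPKM + 1) scale, against -0.09 over all genes tested. It was 0.32 in KO 1 and 1.29 in KO 2, where the medians of all genes were -0.01 and -0.17. All 7 members were above 1 FPKM in every library, so none entered the test through only one group.

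**Figure D1:**
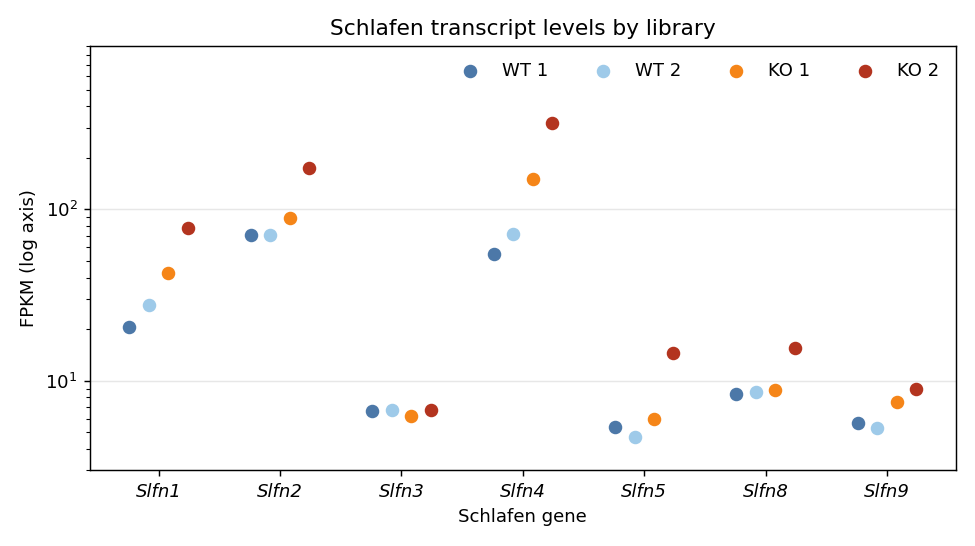
FPKM of each Schlafen gene (log axis) in the 4 libraries, 1 point per library. KO 2 has the highest point for each gene, by the narrowest margin for Slfn3 (6.78 against 6.77 FPKM in WT 2).

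Group II holds the largest and the smallest difference of the family. Slfn4, an interferon-induced gene of macrophages and other myeloid cells, stood at 55.08 FPKM in WT 1, 71.82 in WT 2, 150.05 in KO 1 and 319.91 in KO 2. The groups did not overlap, and KO 2 was at 2.13-fold the level of KO 1. The means were 63.5 ± 11.8 FPKM in wild type and 235 ± 120 FPKM in the KO-labelled libraries (SD, n = 2), a 3.70-fold difference. The log2 change was 1.78 ± 0.39 (SE, 95% interval 0.79 to 2.78), larger than that of 99.9% of the genes tested. Slfn4 was not called (limma, adjusted p = 0.294), and its unadjusted limma p of 0.00564 ranked 253 of 13281. The values rest on about 3449, 4667, 9426 and 19180 fragments, so counting error is small beside the spread between the KO-labelled libraries.

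Slfn3, linked to differentiation of the intestinal epithelium, is transcribed from the same strand just downstream of Slfn4. It stood at 6.64 FPKM in WT 1, 6.77 in WT 2, 6.24 in KO 1 and 6.78 in KO 2, a range in which the groups overlapped. Its log2 change was -0.04 ± 0.14 (SE, 95% interval -0.39 to 0.32, adjusted p = 0.898, limma). Slfn3 and Slfn4 share the ACTTCCTGG run before their starts. Of the distinct stretches of 50 bases in Slfn3 transcripts, 7.39% also occur in Slfn4 transcripts, and 6.45% occur in the gene Gm11427. For Slfn4 the shares are 6.28% with Slfn3 and 4.02% with Gm11427. In all, 9.77% of the Slfn3 stretches occur in genes outside the family. How the authors' counting treated such fragments is not stated in the labels, so a part of each value is uncertain. Slfn3 had about 358, 379, 337 and 350 fragments in WT 1, WT 2, KO 1 and KO 2, against 19180 for Slfn4 in KO 2. That part therefore need not be small for Slfn3, and it could differ between the libraries.

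In group I, Slfn1, the family's founding member and a suppressor of thymocyte growth when overexpressed, stood at 20.44 FPKM in WT 1, 27.58 in WT 2, 42.57 in KO 1 and 78.08 in KO 2. As for Slfn4, KO 1 and KO 2 exceeded the wild type libraries, WT 2 was above WT 1, and KO 2 was well above KO 1. Wild type averaged 24.01 ± 5.05 FPKM and the KO-labelled libraries 60.3 ± 25.1 FPKM (SD, n = 2), 2.51-fold more. The log2 change of 1.25 ± 0.33 (SE, 95% interval 0.41 to 2.08) did not pass (adjusted p = 0.345, limma). Less than 1% of the 50-base stretches of Slfn1 (0.606%) occur in another Schlafen gene, so its values are nearly free of shared sequence.

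Slfn2, needed for the quiescence of T cells and monocytes, was at 70.66 and 70.65 FPKM in wild type, 88.51 FPKM in KO 1 and 173.66 FPKM in KO 2. The wild type libraries were almost identical, and KO 1 was at 1.25-fold and KO 2 at 2.46-fold their mean. The means were 70.7 ± 0.00707 and 131 ± 60.2 FPKM (SD, n = 2). The log2 change was 0.80 ± 0.33 (SE, 95% interval -0.05 to 1.66, adjusted p = 0.423, limma). At this level Slfn2 was more abundant than 94.9% of the genes tested in wild type, and Slfn4 than 94.2%.

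In group III, all 3 genes lay below Slfn1, Slfn2 and Slfn4 in mean FPKM in both groups. Slfn5, a long member of the family and an interferon target, stood at 5.40 FPKM in WT 1, 4.69 in WT 2, 5.99 in KO 1 and 14.51 in KO 2. KO 1 was close to the wild type libraries (1.19-fold their mean), and KO 2 was at 2.88-fold that mean. The log2 change was 0.79 ± 0.39 (SE, 95% interval -0.20 to 1.78, adjusted p = 0.454, limma). Slfn5 shares no 50-base stretch with another Schlafen gene, and 3.37% of its stretches occur in genes outside the family. The antisense gene Slfn5os overlaps Slfn5, and reads of the pair cannot be told apart without strand, whose use in counting is not stated. Slfn5os had 4 fragments in WT 1 and 1 in WT 2 and was listed at 0 FPKM in KO 1 and KO 2.

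Slfn8, which encodes a long member with the helicase-like domain, stood at 8.38 and 8.58 FPKM in wild type, 8.84 FPKM in KO 1 and 15.45 FPKM in KO 2. KO 1 was close to the wild type libraries, at 1.04-fold their mean, and KO 2 was at 1.82-fold that mean. The log2 change was 0.42 ± 0.27 (SE, 95% interval -0.26 to 1.11, adjusted p = 0.514, limma). Slfn9, its neighbour and close relative, stood at 5.64, 5.26, 7.48 and 8.90 FPKM. Here KO 1 and KO 2 were nearer to each other, at 1.37-fold and 1.63-fold the wild type mean. The means were 5.45 ± 0.269 and 8.19 ± 1.00 FPKM (SD, n = 2), and the log2 change was 0.51 ± 0.15 (SE, 95% interval 0.11 to 0.90, adjusted p = 0.369, limma). Of the 50-base stretches, 14.6% of Slfn8 and 11.2% of Slfn9 occur in another Schlafen gene, for both most often in Slfn10-ps, so fragments could be divided among these genes.

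The order of the levels, which FPKM allows to be read per exon length, also differed between the groups. In wild type the order by mean FPKM was Slfn2, Slfn4, Slfn1, Slfn8, Slfn3, Slfn9 and Slfn5, and the libraries of Slfn2 and Slfn4 overlapped, as did those of Slfn9 and Slfn5. In the KO-labelled libraries it was Slfn4, Slfn2, Slfn1, Slfn8, Slfn5, Slfn9 and Slfn3. Among genes next to each other in that order, the ranges of Slfn4 and Slfn2, of Slfn8 and Slfn5, and of Slfn5 and Slfn9 overlapped. Within KO 1 and within KO 2, however, Slfn4 was above Slfn2 and Slfn8 above Slfn5. Likewise Slfn9 was above Slfn5 in WT 1 and in WT 2. The order of Slfn2 and Slfn4 differed between WT 1 and WT 2, and that of Slfn5 and Slfn9 between KO 1 and KO 2. Slfn5 was also below Slfn3 in KO 1 (5.99 against 6.24 FPKM) and above it in KO 2 (14.51 against 6.78 FPKM). Slfn4 made up 32.0% and 36.8% of the family's summed FPKM in WT 1 and WT 2, 48.5% in KO 1 and 51.8% in KO 2. The share of Slfn2 was 41.0% and 36.2% in wild type and 28.6% and 28.1% in KO 1 and KO 2, and that of Slfn3 was 3.86% and 3.47% against 2.02% and 1.10%. The share of Slfn1 stayed between 11.9% and 14.1% in the 4 libraries.

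Other genes with a Schlafen name were low. The pseudogene Slfn10-ps, which lies between Slfn8 and Slfn2, had 1.50 FPKM in WT 1, 1.87 in WT 2, 1.48 in KO 1 and 1.77 in KO 2 (log2 change -0.03 ± 0.19, adjusted p = 0.942, limma). Slfn14, an endoribonuclease gene of platelets and reticulocytes, was at 0.68, 0.44, 0.20 and 0.54 FPKM, below the filter. Slfnl1, on chromosome 4, rested on 3, 2 and 13 fragments in WT 1, WT 2 and KO 1 and was listed at 0 in KO 2.

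**Figure D2:**
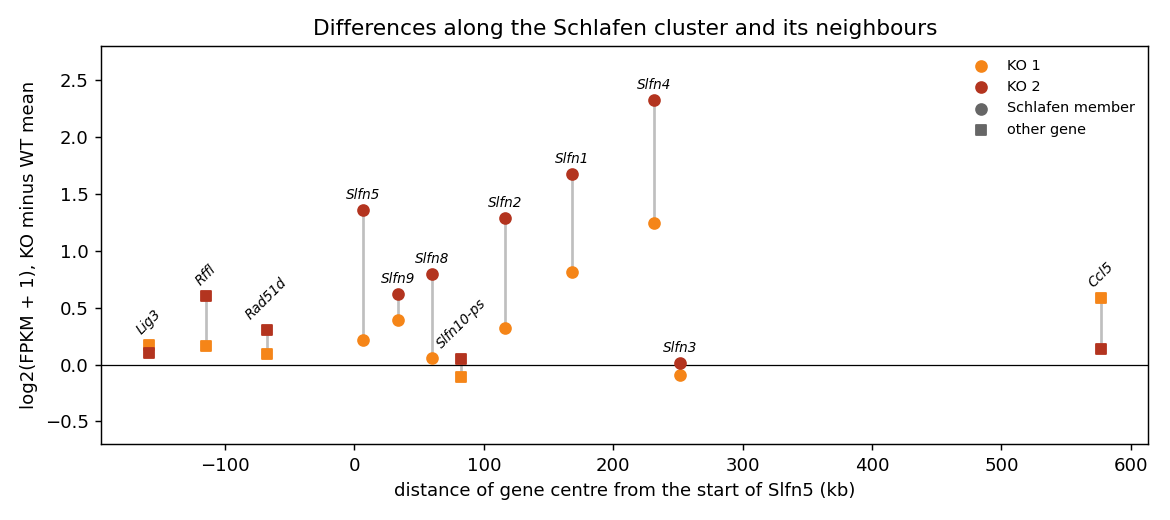
Log2(FPKM + 1) in KO 1 and KO 2 minus the wild type mean, plotted by distance of each gene's centre from the start of Slfn5 in kb; circles are Schlafen members and squares are Slfn10-ps and the 4 neighbours with the smallest p. Slfn4 has the highest points (1.24 and 2.33), while Slfn3 beside it lies at -0.09 and 0.01.

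The genes on either side of the cluster were set beside the members. Of 14 listed neighbours, 8 were tested and 0 passed in limma (0 had an unadjusted p under 0.05, and voom called no gene higher). KO levels lay above every wild type level in 3 of the 8, against 19.7% of all genes tested. The median log2 change of the 8 was 0.08 (0.16 in KO 1 and 0.05 in KO 2), against 0.79 for the members and -0.09 for all genes. Rad51d, a DNA repair gene upstream of Slfn5, was at 5.27 and 4.94 against 5.51 and 6.53 FPKM. Rffl, a ubiquitin ligase gene, was at 7.05 and 6.05 against 7.42 and 10.47 FPKM, the smallest p of the list (adjusted p = 0.471, limma). Lig3, which encodes a DNA ligase, had 6.36 and 6.25, then 7.24 and 6.84 FPKM. The chemokine gene Ccl5 had 19.84 and 14.09, then 25.65 and 18.46 FPKM, and its groups overlapped.

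Interferon-stimulated genes outside the family gave a smaller median difference of the same sign. Of 52 listed genes, all tested, 0 passed in limma and 17 had an unadjusted p under 0.05 in either direction, against 12.5% of all genes. A positive log2 change was found for 47 of the 52, against 38.3% of all genes, and 31 had KO levels above every wild type level, against 19.7%. Their median log2 change was 0.39, with 0.16 in KO 1 and 0.63 in KO 2. Oas3, a synthase of the second messenger that activates RNase L, had 7.12 and 6.53 FPKM in wild type, 15.04 in KO 1 and 26.79 in KO 2. Oas2, of the same family, had 7.63 and 6.90, then 15.32 and 31.49 FPKM. Their log2 changes of 1.43 and 1.48 lay between those of Slfn1 and Slfn4, and limma gave adjusted p-values of 0.286 and 0.305. The level of Isg15, which is conjugated to proteins, was 15.93 and 13.08 FPKM, then 23.62 and 37.53 FPKM, and that of Ifit3b, of the interferon-induced tetratricopeptide repeat family, was 1.46 and 1.31, then 3.16 and 8.20 FPKM. Of 18 interferon receptors, STATs and IRFs, 0 passed in limma and 2 had an unadjusted p under 0.05, a share near the 12.5% of all genes. Of the 18, 15 were positive, against 38.3% of all genes. The median of the 18 was 0.21 (0.12 in KO 1 and 0.29 in KO 2). Ifngr2, a chain of the interferon gamma receptor, was among those with the smallest p-values, at 13.34 and 13.21, then 16.39 and 19.59 FPKM. Irf7, the factor that amplifies interferon production, was at 15.49 and 12.05 against 19.01 and 33.48 FPKM (log2 change 0.84 ± 0.30, adjusted p = 0.381, limma).

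**Figure D3:**
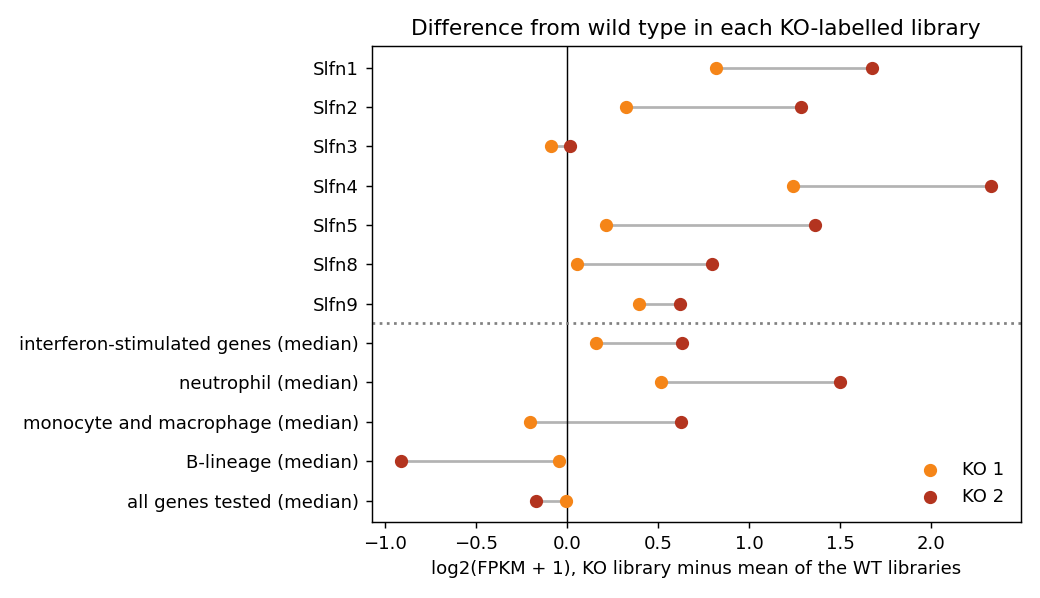
Log2(FPKM + 1) in KO 1 and in KO 2 minus the wild type mean, for each Schlafen gene and, below the dotted line, for the medians of 4 gene lists and of all genes tested. KO 2 lies further right than KO 1 for each Schlafen gene, as it does for the neutrophil list (0.52 and 1.50) and in the opposite direction for the B-lineage list (-0.04 and -0.91).

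Among the marker lists of other blood cells, the summed levels of the neutrophil and plasmacytoid dendritic cell lists were higher in both KO-labelled libraries without overlap, as were those of 6 of the 7 Schlafen genes. The neutrophil list had a median log2 change of 0.52 in KO 1 and 1.50 in KO 2, against 0.32 and 1.29 for the Schlafen genes. For 11 of its 12 genes both KO-labelled libraries were above both wild type libraries, against 19.7% of all genes tested. None of the 12 was at 0 in any library, and Cxcr2, the chemokine receptor of mature neutrophils, was at 26.01 and 30.84 against 53.02 and 107.30 FPKM. In these bulk libraries a different number of cells of a type and a different amount of RNA per cell cannot be told apart. Monocyte and macrophage markers summed to 208 and 166 FPKM in wild type, 193 FPKM in KO 1 and 386 FPKM in KO 2. Plasmacytoid dendritic cell markers summed to 45.2 and 39.3 against 52.5 and 68.4 FPKM and natural killer cell markers to 24.74 and 20 against 23.76 and 30.92 FPKM. The groups overlapped for the monocyte and natural killer lists. T cell markers, at 37.23 and 40.84 against 39.95 and 37.37 FPKM, and megakaryocyte markers, at 18.5 and 10.8 against 10.3 and 17.4 FPKM, overlapped between the groups. Erythroid markers (557 and 313 against 146 and 272 FPKM) and plasma cell markers (120 and 107 against 10.5 and 5.04 FPKM) were lower in the KO-labelled libraries. The part of any of these cells in the Schlafen differences was not tested.

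Levels were therefore also expressed per neutrophil marker level, the geometric mean of the 12 markers. For Slfn4 this ratio was 0.0820 and 0.110 in wild type and 0.152 and 0.166 in KO 1 and KO 2, so the groups stayed apart, with a 1.65-fold difference in place of 3.70-fold. For Slfn1 it was 0.0304 and 0.0422 against 0.0430 and 0.0405, and the groups overlapped. For Slfn2 it was 0.105 and 0.108 against 0.0894 and 0.0900, and for Slfn3 it was 0.00989 and 0.0104 against 0.00631 and 0.00351, both lower in the KO-labelled libraries. The single marker chosen mattered for Slfn4. Relative to Cxcr2 it stood at 2.12 and 2.33 in wild type against 2.83 and 2.98, and relative to S100a8 at 0.0115 and 0.0151 against 0.0266 and 0.0253. Relative to Mmp9 it stood at 0.4301 and 0.4505 against 0.4388 in KO 1 and 0.744 in KO 2, so there the groups overlapped. Slfn1 relative to Cxcr2 was at 0.786 and 0.894 against 0.803 and 0.728, also with overlap. Scaling to the neutrophil list moved the median of all genes by -0.87 on the log2 scale. Relative to that median, Slfn4 was at 1.69, Slfn1 at 1.17, Slfn5 at 0.81, Slfn2 at 0.71, Slfn9 at 0.55, Slfn8 at 0.42 and Slfn3 at 0.01. Since the scaling divides each library by a single number, values relative to the median stay close to those without it by construction. No Schlafen gene passed with it (adjusted p from 0.167 for Slfn3 to 0.820 for Slfn5, limma).

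**Figure D4:**
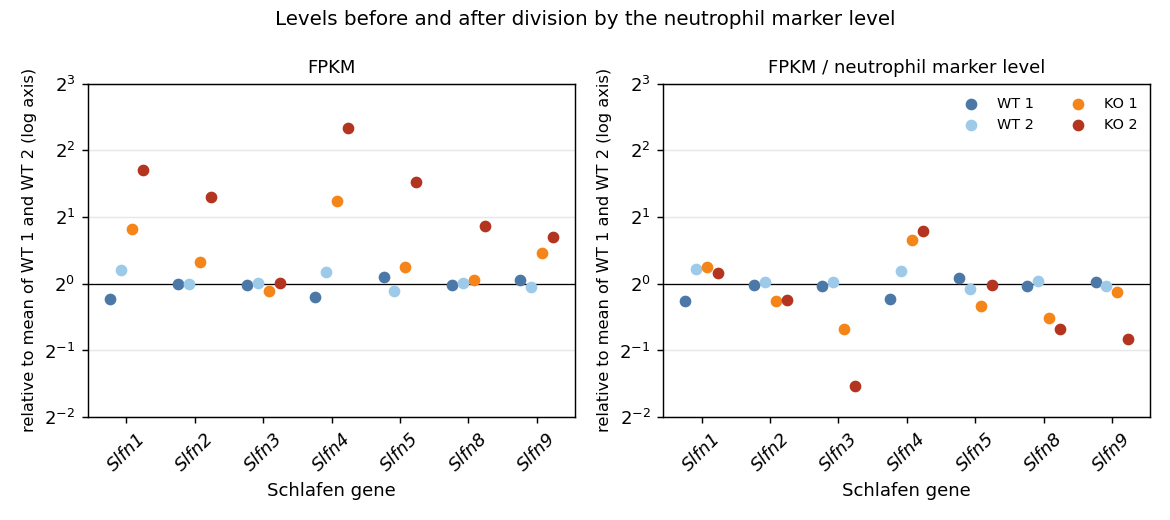
Each Schlafen gene in the 4 libraries as a ratio to the mean of WT 1 and WT 2 (log axis), from FPKM (left) and from FPKM divided by the geometric mean of the neutrophil markers (right). On the right both KO-labelled points stay above both wild type points for Slfn4, and both lie below them for Slfn2, Slfn3, Slfn8 and Slfn9.

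The calls rested on which KO-labelled library was kept. Without KO 1, 4 Schlafen genes passed over all genes in limma, where 4.21% of all genes rose. They were Slfn4 (log2 change 2.33, adjusted p = 0.0426), Slfn2 (1.29, adjusted p = 0.0426), Slfn5 (1.36, adjusted p = 0.0439) and Slfn8 (0.80, adjusted p = 0.0490). Slfn1 (1.68) at the threshold itself and Slfn9 (0.62, adjusted p = 0.0638) did not. That fit assumes that KO 2, then alone in its group, varies like the wild type libraries. Without KO 2, 0 of 7 passed, with log2 changes of 1.24 for Slfn4, 0.82 for Slfn1, 0.40 for Slfn9, 0.32 for Slfn2, 0.21 for Slfn5, 0.05 for Slfn8 and -0.09 for Slfn3 (adjusted p from 0.252 to 0.817, limma). Slfn4 thus had the highest log2 change of the family in either KO-labelled library, and Slfn3 the lowest. With libraries scaled to B-lineage markers, which moved the median of all genes by 0.46, Slfn4 passed alone (log2 change 2.32, adjusted p = 0.0485), and relative to the new median it stood at 1.95.

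**Figure D5:**
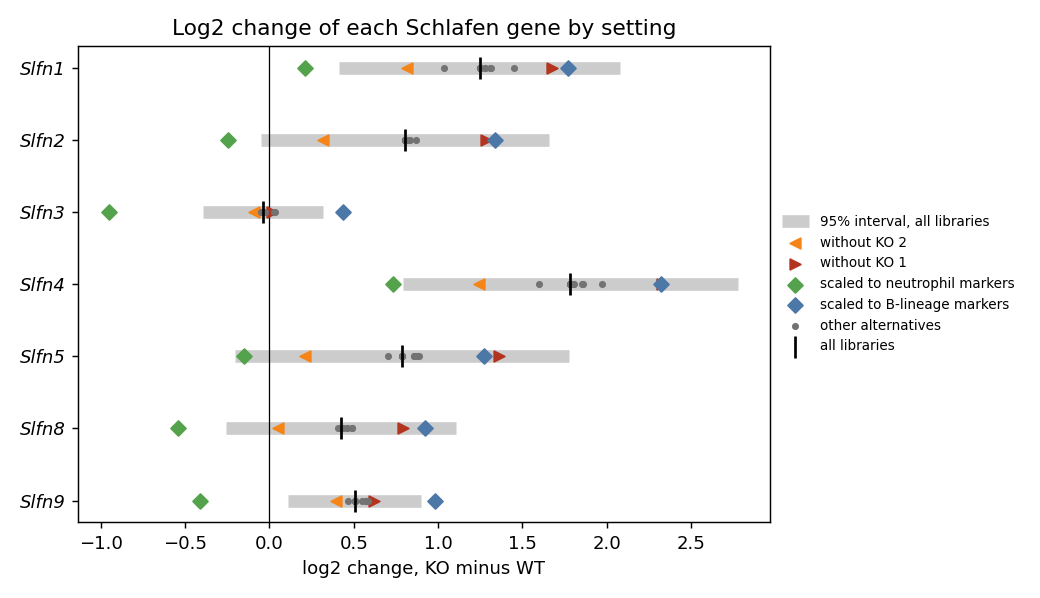
Log2 change of each Schlafen gene (KO minus WT) with its 95% interval from all libraries (grey bar, black tick), and the values under each alternative setting. Slfn4 and Slfn1 lie right of 0 in each setting. Scaling to neutrophil markers, which gave 96.4% of all genes a negative change, puts Slfn2, Slfn5, Slfn8 and Slfn9 left of 0. Slfn3 lies left of 0 with all libraries (-0.04) and right of 0 under 4 of the 14 alternatives (0.014 to 0.44).

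Among 6182 genes outside the family with a range of at least 0.5, the profiles most like each member over the 4 libraries were ranked by the root-mean-square difference of centred log2(FPKM + 1) values. For Slfn4 they were Stfa2l1 (0.062), Lipg (0.080) and Wfdc17 (0.11). Stfa2l1 had 6.80 and 9.16, then 22.15 and 47.19 FPKM. For Slfn1 they were Arg2 (0.018), Ccr1 (0.067) and Lilrb4a (0.072), and Ccr1, a chemokine receptor gene, was at 9.72 and 12.92 against 19.25 and 34.01 FPKM. For Slfn2 they were Lilra6 (0.021), Gm6637 (0.027) and Lin28a (0.029), and for Slfn5 they were Pxylp1 (0.036), Olr1 (0.042) and 2210406H18Rik (0.051). Tpcn2 (0.0058), Ern1 (0.015) and Rgs18 (0.026) were nearest to Slfn8, and Bloc1s3 (0.011), Gm44260 (0.013) and Dirc2 (0.018) to Slfn9. For Slfn3, whose own range was 0.10, the nearest were Dram2, Dnase2a and Uqcrb at 0.15 each, which is larger than that range. Since only genes with a range of at least 0.5 were compared, a close match to Slfn3 was not possible. The genes named for Slfn3 are therefore not alike in any useful sense. Within the family the closest pair was Slfn2 and Slfn5 (0.089). With 4 libraries such likeness is a description of these samples.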

How the data were processed

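The authors deposited 1 table per library of FPKM values, a unit that the file headers name. The submitters' processing notes name the genome build mm9; no aligner, counting program or annotation is stated in what was available. FPKM times union exon length (GENCODE M21) fell on whole fragments for 99.1% to 99.6% of the low values checked (tolerance 0.15 fragments, 30% by chance), so lengths and positions were taken from that annotation of GRCm38. Symbols were found for 55394 genes.

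Log2(FPKM + 1) was tested with limma 3.58.1 (R 4.3.3), letting the prior variance follow the mean level, on the 13281 genes that averaged 1 FPKM or more in WT or in KO. Benjamini-Hochberg adjustment covered all of these genes, and the threshold was 0.05. Fold changes on this scale understate changes of low genes. Exact permutation of 2 against 2 libraries has a smallest p of 0.333 and was not used. The model was tested on simulated data. Ranges of fragments cover counting error only.

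Members, lists, motifs and tests were chosen with earlier results of these data known; the run ACTTCCTGG, the neutrophil scaling and the crossed block were added after the data were seen. Named genes were the members, other Schlafen-named genes, Adar, the 3 most similar profiles per member and up to 4 genes with the smallest p per list (Cxcr2 and Gm11427 were chosen later). Replicate numbers were checked for pairing, with no sign that equal numbers share a source. Some listed genes are not reported by name here.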

Additional observations from a re-analysis of the deposited data

How the results depend on the processing

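Over all genes, 27 were called with all libraries, against 15 with a pseudocount of 0.1, 0 with no filter on low values (2257 at an unadjusted p under 0.05), 122 with B-lineage scaling, 9 with voom, 68 with the replicate block, 365 with neutrophil scaling and 213 with the crossed replicate block, and between 0 (without KO 2, 1969 unadjusted) and 948 (without KO 1) when 1 library was left out. Leaving out WT 1 gave 14. Of the Schlafen genes 0 were called with all libraries, 1 with B-lineage scaling, and between 0 and 4 when 1 library was left out. The same replicate number is not known to mark a shared source, and the replicate block changed no Schlafen call (adjusted p = 0.0714 for Slfn4 and 0.0993 for Slfn1). Differences between replicates 1 and 2 correlated at -0.149 between the groups across genes, and the crossed block called 0 Schlafen genes. With 1 library left out, log2 changes ranged from 1.24 to 2.33 for Slfn4, 0.82 to 1.68 for Slfn1, 0.40 to 0.62 for Slfn9, 0.32 to 1.29 for Slfn2, 0.21 to 1.36 for Slfn5, 0.054 to 0.80 for Slfn8, and -0.090 to 0.014 for Slfn3. Slfn4 became a call at 2.32 with B-lineage scaling. The sign of Slfn3 turned with median centring (0.031), quantile normalization (0.032), B-lineage scaling (0.44) and without KO 1 (0.014). With neutrophil scaling Slfn2 (-0.25), Slfn5 (-0.15), Slfn8 (-0.54) and Slfn9 (-0.41) turned negative, beside a median of all genes at -0.96. The cause of these moves was not tested. Slfn1 and Slfn4 kept a positive change under the 14 alternatives. Depth is lowest for Slfn14, Slfnl1 and Slfn5os, at 40 fragments or fewer, and for Slfn10-ps, at 85 to 111 fragments a library.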
